A study of Homo sapiens with 9 samples.

Results

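The genes described here are the 10 that make, break down and restrain the polyamines in human cells: ODC1, AMD1, SRM and SMS for synthesis, SAT1, SMOX and PAOX for breakdown, and OAZ1, OAZ2 and AZIN1 for the antizyme system. They are the rows of the count table that carry these symbols. No threshold on measured values selected them, but earlier results of these data were known when the list was drawn up. All 10 were present among 59453 gene names, and all 10 passed the filter on low counts that left 16556 genes for testing. Poly(A)-selected RNA was sequenced from MDA-MB-231 cells, a human triple-negative breast cancer line, in 3 groups of 3 libraries: untreated cells, cells given TEPA for 8 h (TEPA 8 h) and cells given TEPA for 24 h (TEPA 24 h). TEPA is a copper chelator. The study's text and its reagent list give it different chemical names, and both name linear molecules of amines joined by short carbon chains, which is also the build of the natural polyamines. The labels give a TEPA concentration of 8 mM and the methods for RNA sequencing give 4 mM, so the dose behind these libraries is uncertain. The times are those of each sample's treatment label, while the treatment protocol repeated for every sample names 24 h only. The study's methods have TEPA for cells dissolved in complete culture medium. The same 3 untreated libraries served both times, no time or handling of the untreated cells is named, and no gene was altered in any group. The labels do not say that replicates were separate cultures, so p-values measure the spread between these libraries, which may be technical.

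Putrescine, spermidine and spermine are small positively charged molecules that bind RNA and DNA and are needed for growth. Ornithine decarboxylase (ODC1) makes putrescine, and spermidine synthase (SRM) and spermine synthase (SMS) extend it with aminopropyl groups supplied through S-adenosylmethionine decarboxylase (AMD1). Spermidine/spermine N1-acetyltransferase (SAT1) tags polyamines for oxidation by PAOX or for export, and spermine oxidase (SMOX) acts on spermine directly. Antizymes (OAZ1, OAZ2) bind ODC1, send it to the proteasome and restrain polyamine uptake, and antizyme inhibitor 1 (AZIN1) draws antizyme away. Much of this control works on translation and on protein turnover, which mRNA counts do not measure.

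The sequence that makes an antizyme a polyamine sensor is a site in its coding region where the ribosome must shift frame by a base to go on. It is shown because OAZ1 and OAZ2 mRNA is the substrate of that step and both are compared below. The capitals mark the codon before the stop and the TGA stop codon itself, read 5′ to 3′ on the coding strand of hg38. The OAZ1 site lies at chr19:2271416-2271469 on the plus strand and the OAZ2 site at chr15:64691489-64691542 on the minus strand.
OAZ1: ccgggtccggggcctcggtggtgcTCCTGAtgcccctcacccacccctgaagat
OAZ2: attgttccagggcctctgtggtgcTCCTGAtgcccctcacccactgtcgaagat
Of 54 aligned bases, 44 were identical (81.5%), and the longest identical run, which holds the shift site, was 27 bases. The annotated coding sequences skip 1 base there, at position 2271443 of chromosome 19 for OAZ1 and at position 64691515 of chromosome 15 for OAZ2.

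The other sequences shown are from the starts of SRM and ODC1, since each of these synthesis genes was called in opposite directions at the 2 times. The capitals mark the E-box CACGTG, a site that MYC with MAX is known to bind. The motif was chosen after the values were seen. The SRM stretch is chr1:11060169-11060258 and the ODC1 stretch chr2:10447998-10448087, both on the minus strand of hg38.
SRM: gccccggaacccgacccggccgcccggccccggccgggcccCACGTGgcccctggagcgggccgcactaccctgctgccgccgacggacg
ODC1: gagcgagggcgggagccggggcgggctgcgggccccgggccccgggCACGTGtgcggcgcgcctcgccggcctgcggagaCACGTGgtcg
The SRM E-box begins at position -199 from the RefSeq start, and the ODC1 E-boxes begin at positions -29 and 5 from the second of its RefSeq starts. The first ODC1 E-box lies in an intron of the GENCODE model, between the exon that starts at 10448121 and the exon that ends at 10448014. In RefSeq promoter windows of GRCh38.p14, from 250 bases before to 50 bases after a start, 7 of the 10 genes had an entry, and ODC1 and SRM were those with CACGTG, which reads the same on both strands. Over all windows, of tested genes or not, 2548 of 35116 (7.26%) held it. That is a share of single windows, while a gene counts here if any of its windows holds the motif. Among tested genes with such a window, 26.4% of the 1362 with an E-box and 25.4% of the 9680 without were called higher at 8 h. Called lower at 8 h were 26.4% and 28.4%. At 24 h 26.9% and 27.5% were called higher, and 34.9% and 29.9% lower. Of the other pathway genes counted below, ALDH18A1, ASS1, MRI1, ENOPH1, ADI1, DOHH and EIF5A2 also held CACGTG in such a window. Their log2 fold changes at 8 h and 24 h were mixed. MRI1 had 0.50 and 0.19, ADI1 -0.39 and -0.46, ASS1 -0.20 and 0.37, and ALDH18A1 -0.05 and -0.17. ENOPH1 had 0.25 and 0.01, DOHH 0.235 and -0.02, and EIF5A2 0.12 and 0.03. Those of ALDH18A1 at 8 h, ENOPH1 and DOHH at 24 h and EIF5A2 at both times were not called. A match of letters is a description of the window and not evidence of binding.

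Total counts ran from 34633755 to 49342659 per library. Of the markers expected in this line, vimentin was at 3672 ± 124 CPM (counts per 1000000 counts of the TMM-scaled library, with SD, n = 3) in untreated cells. KRT8, KRT18, CD44 and EGFR were at 404.5, 300.9, 858.1 and 434.5 CPM there. Of those expected to be low or absent, PGR had 0 counts in every library, ESR1 had 2 to 9 and EPCAM was at 1.125 CPM in untreated cells. CDH1, also expected to be low, was at 0.624, 0.351 and 3.19 CPM in untreated cells, at 8 h and at 24 h, highest in every 24 h library. ERBB2, listed as low in this line, was at 81.4 ± 5.11 CPM. Of the markers of other cell types, PTPRC had at most 5 counts and DCN at most 4 in any library, while PECAM1 was at 3.59, 1.06 and 8.13 CPM in untreated cells, at 8 h and at 24 h, and its part in the results was not tested. The share of counts from mitochondrially encoded genes was 1.79% to 2.91% in untreated cells, 3.61% to 4.02% at 8 h and 1.89% to 2.02% at 24 h. The part of that share in the results was not tested. A fit without those genes is given for ODC1 and SRM, but it leaves their own counts as they were and so bears only on the scaling. Among the untreated libraries replicates 1 and 2 differed most, by a chi-square of 21.2 per degree of freedom, where other pairs of replicates gave 2.39 to 8.62. Replicate 3 differed from replicate 1 by 8.62 and from replicate 2 by 6.63, so it lay between them. Values without untreated replicate 1 are given below for ODC1, SAT1, ASS1, SLC7A11, MYC and MXI1. For ODC1 and SAT1 the ranges over leaving out each library take in replicate 2 as well. In bulk RNA, fewer cells of a type and less RNA per cell cannot be told apart, and a CPM is a share of each library's counts.

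On the scale of CPM per kilobase of exon, the level of the 10 genes in untreated cells spanned from antizyme 1 to the peroxisomal oxidase. Length here was the union of all annotated exons of a gene, which can be longer than its mRNA, so the order depends on it. In CPM without that scaling, OAZ1 (529.5) was above SMS (324.3) and AMD1 (160.9) above ODC1 (73.6) in every untreated library. OAZ1 (154 ± 4.48) and SMS (152 ± 5.34) headed the order with overlapping libraries, followed by SRM (100.2 ± 8.01) and AZIN1 (47.1 ± 0.688). ODC1 (22.3 ± 4.91) and SAT1 (18.4 ± 3.7) overlapped each other, and SAT1 also overlapped AMD1 (15.8 ± 0.538). OAZ2 (11.0 ± 0.407), SMOX (7.11 ± 0.498) and PAOX (0.458 ± 0.29) closed it, each below the one before in every library. At 8 h ODC1 (34.8 ± 2.08) was above SAT1 (23.5 ± 0.62) in all 3 libraries, and at 24 h SAT1 (31.5 ± 1.27) was above ODC1 (16.6 ± 0.599) in all 3.

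After 8 h of TEPA the synthesis genes ODC1 and SRM were higher and AMD1 was lower, SAT1 was higher and SMOX lower, and both antizymes and the antizyme inhibitor were lower. Against untreated cells, 8 of the 10 genes were called by edgeR's quasi-likelihood test at an adjusted p under 0.05, 3 higher and 5 lower. The same rule called 49.6% of all 16556 genes, 25.2% higher and 24.5% lower, so calls were common throughout the transcriptome. The groups did not overlap for 8 of the 10, against 57.8% of all genes. The median log2 fold change of the 10 was -0.06 and that of all genes -0.0013. With a log2 fold change beyond 0.5 also asked for, ODC1 and AMD1 remained, in opposite directions, against 17.8% of all genes.

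At 24 h the synthesis genes were all lower than in untreated cells and SAT1 was higher. Of the 10 genes, 7 were called, 1 higher and 6 lower, beside 52.5% of all genes (25.7% higher and 26.8% lower). The groups did not overlap for 6 of the 10, against 57.2% of all genes. The median log2 fold change was -0.21, where all genes had 0.0023. Beyond 0.5, AMD1 (lower) and SAT1 (higher) remained, against 18.7% of all genes. Both times were set against the same untreated libraries, so their directions are not independent of each other. Set directly against 8 h, 24 h had 3 of the 10 genes higher and 4 lower, where 54.8% of all genes were called, 26.0% higher and 28.8% lower. These groups did not overlap for 7 of the 10, against 62.0% of all genes, and beyond 0.5 the calls were ODC1, SRM and SMS, all lower, against 21.2% of all genes.

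**Figure D1:**
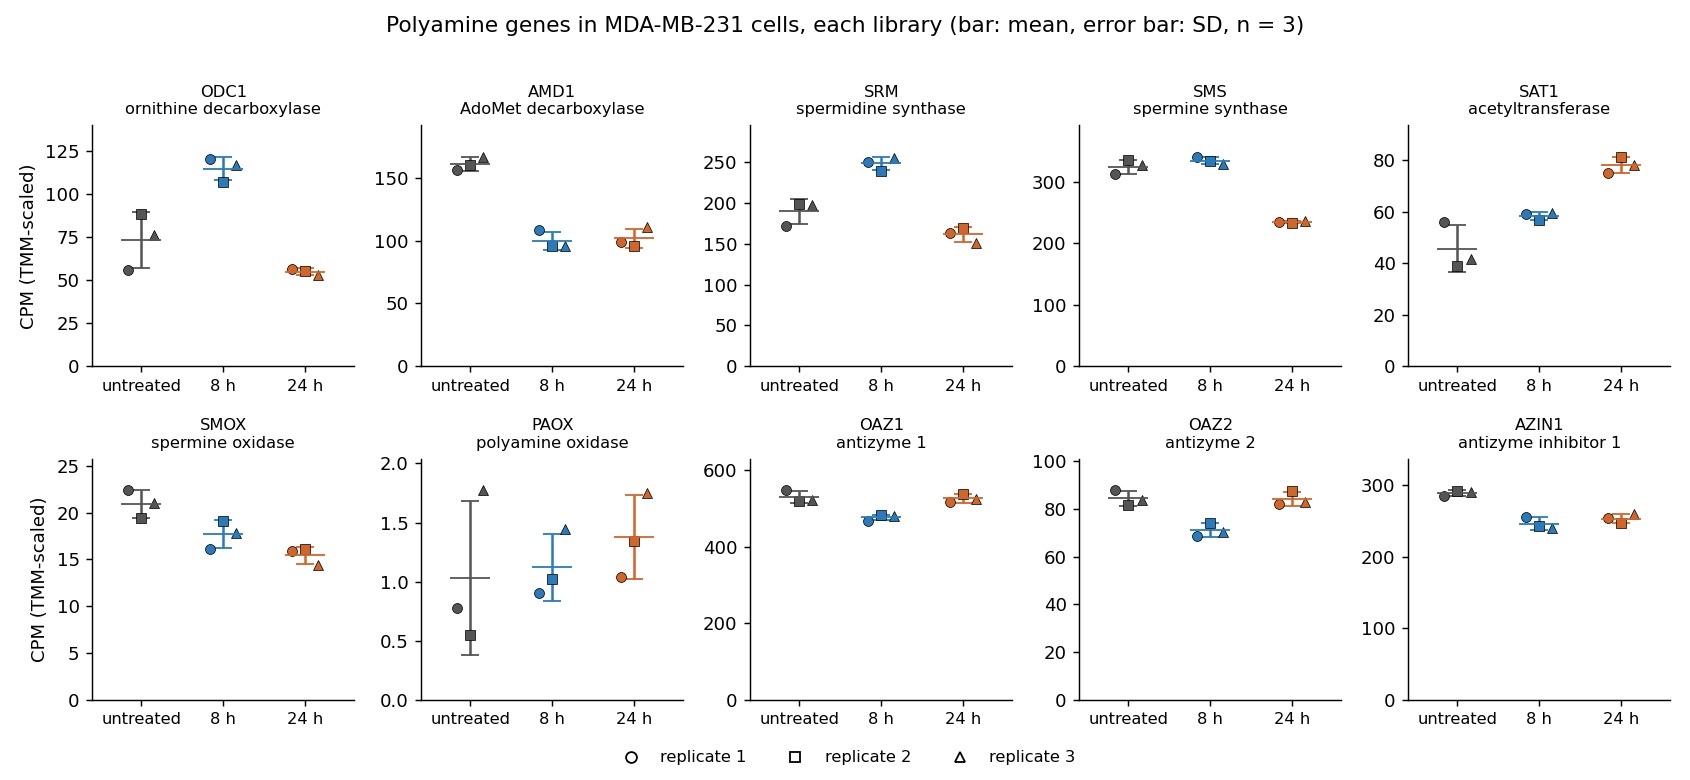
CPM of each of the 10 genes in each library (y axes start at 0 and differ between panels), by group; markers give the replicate, horizontal bars the mean and error bars the SD (n = 3). ODC1 and SRM are highest at 8 h, AMD1 is lower in all 6 TEPA libraries than in any untreated one, and SAT1 is highest at 24 h.

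ODC1, the enzyme that commits ornithine to polyamines, moved up and then down. Untreated replicates 1 to 3 had 56.2, 88.4 and 76.3 CPM of it, the libraries of 8 h had 120.7, 107.3 and 116.8 CPM, and those of 24 h had 56.8, 55.3 and 52.9 CPM. All 8 h libraries were above every untreated library, and at 24 h untreated replicate 1 fell among the treated values. The log2 fold change was 0.64 at 8 h (SE 0.105, adjusted p = 0.000117), a 1.56-fold rise. At 24 h it was -0.42 (SE 0.107, adjusted p = 0.00365). Without untreated replicate 1 these were 0.48 and -0.58, without untreated replicate 2 the 24 h value was -0.27 (adjusted p = 0.0183), and leaving out each library in turn gave 0.48 to 0.79 at 8 h and -0.58 to -0.27 at 24 h, called in all 6 fits at each time. Between the times ODC1 dropped by 1.06 log2 units (SE 0.107, adjusted p = 5.87e-07). The share of mitochondrial counts was also highest at 8 h and low in untreated replicate 1, and a link between the 2 was not tested. With those genes left out of the counts, which bears only on the scaling, ODC1 changed by 0.64 at 8 h and -0.42 at 24 h. Among the 11920 genes with a mean of at least 100 counts, the patterns nearest to that of ODC1 over the 9 libraries were those of NOL6 (Pearson r = 0.9948), MT-TL1 (0.9946) and SEMA7A (0.9936), a description over points that share libraries.

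AMD1 makes decarboxylated S-adenosylmethionine, the donor of aminopropyl groups. It stood at 155.8, 160.2 and 166.7 CPM without TEPA, at 108, 96.0 and 95.5 CPM after 8 h and at 99.2, 95.8 and 110.4 CPM after 24 h. All 6 TEPA libraries lay below every untreated library, and the TEPA times overlapped. The log2 fold change was -0.69 after 8 h (SE 0.056, adjusted p = 1.17e-07) and, after 24 h, -0.66 (SE 0.056, adjusted p = 9.71e-08). Between the times it was 0.03 (SE 0.0564, adjusted p = 0.711), a difference that was not called.

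SRM, which joins an aminopropyl group to putrescine, stood at 172.2, 199.1 and 197.8 CPM without TEPA, at 250.7, 239.7 and 255.5 CPM after 8 h and at 163.7, 169.6 and 151.1 CPM after 24 h. The 3 groups were apart from one another, with 8 h on top and 24 h at the bottom. SRM rose by 0.39 log2 units after 8 h (SE 0.055, adjusted p = 2.53e-05), and after 24 h its log2 fold change was -0.23 (SE 0.055, adjusted p = 0.00212). Between the times SRM dropped by 0.62 log2 units (adjusted p = 1.43e-07). Left without mitochondrially encoded genes, the counts gave 0.39 at 8 h and -0.23 at 24 h.

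SMS, the last enzyme of the chain, stood at 311.9, 334.2 and 326.9 CPM without TEPA, at 340.4, 333.2 and 328.8 CPM after 8 h and at 235.1, 233.1 and 236 CPM after 24 h. The 8 h libraries overlapped the untreated ones, and the 24 h libraries lay close together and below both. At 8 h the log2 fold change was 0.04 (SE 0.035, adjusted p = 0.338) and no difference was called. After 24 h SMS had a log2 fold change of -0.47 against untreated cells (SE 0.036, adjusted p = 3.23e-08) and of -0.51 against 8 h (adjusted p = 1.23e-08).

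**Figure D2:**
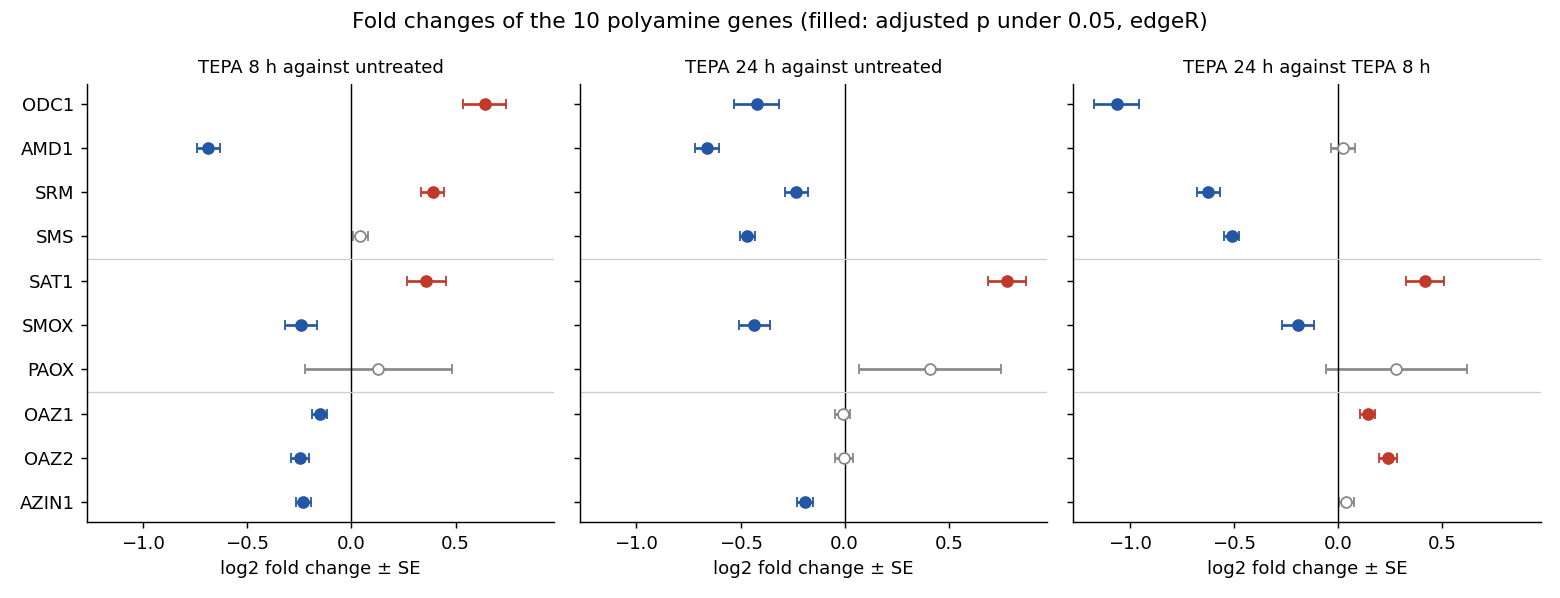
Log2 fold change with its standard error for the 10 genes in the 3 comparisons, grouped as synthesis, breakdown and antizyme genes; filled points were called (adjusted p under 0.05) and open points were not. ODC1 moves from 0.64 at 8 h to -0.42 at 24 h, AMD1 is near -0.7 at both times, and SAT1 is at 0.36 and 0.78.

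SAT1, whose mRNA and protein are known to respond to polyamine excess and to analogs, was the breakdown gene that rose. It stood at 56.1, 38.9 and 41.8 CPM without TEPA, at 59.3, 56.6 and 59.3 CPM after 8 h and at 75.0, 81.3 and 78.2 CPM after 24 h. Each time lay above the group before it, although untreated replicate 1 was just below the lowest 8 h library. The log2 fold change was 0.36 at 8 h (SE 0.093, adjusted p = 0.00439) and, after 24 h, 0.78 (SE 0.092, adjusted p = 3.42e-06). Leaving out each library in turn gave 0.25 to 0.53 at 8 h, with adjusted p up to 0.0312, and 0.67 to 0.95 at 24 h. Without untreated replicate 1 SAT1 rose by 0.53 at 8 h and by 0.95 at 24 h. From 8 h to 24 h it rose by 0.42 (SE 0.0904, adjusted p = 0.000959). The genes of nearest pattern were ABCA7 (r = 0.9795), FCHSD2 (0.9753) and SMAD6 (0.9748) over the 9 libraries.

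SMOX, which turns spermine into spermidine and gives off hydrogen peroxide, was lower. It stood at 22.4, 19.4 and 21.0 CPM without TEPA, at 16.1, 19.1 and 17.9 CPM after 8 h and at 15.9, 16.1 and 14.4 CPM after 24 h. The highest 8 h library came just under the lowest untreated one, and at 24 h all libraries were clear of the untreated range. The log2 fold change was -0.24 at 8 h (SE 0.075, adjusted p = 0.0136), which leaving out TEPA 8 h replicate 1 undid (-0.18, adjusted p = 0.0697). At 24 h it was -0.43 (SE 0.075, adjusted p = 0.000157), which held in all 6 fits that left out a library. The step from 8 h to 24 h (-0.19, adjusted p = 0.0435) was lost in 10 of 14 alternative fits, with adjusted p from 0.016 to 0.221.

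PAOX, the peroxisomal oxidase of acetylated polyamines, was near the floor of these data, with 25 to 70 counts per library. It stood at 0.773, 0.547 and 1.77 CPM without TEPA, at 0.900, 1.02 and 1.44 CPM after 8 h and at 1.04, 1.34 and 1.75 CPM after 24 h. The groups overlapped throughout, and untreated replicate 3 was the highest of all libraries. No difference was called, at 0.13 for 8 h (adjusted p = 0.786), 0.41 for 24 h (adjusted p = 0.332) and 0.28 between the times (adjusted p = 0.504). Without untreated replicate 3 the 24 h value was 1.05 and was called (adjusted p = 0.0105), so 1 library decides it.

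OAZ1, the abundant antizyme, stood at 547.3, 520.1 and 521.2 CPM without TEPA, at 467.7, 482.1 and 478.5 CPM after 8 h and at 515.7, 537.5 and 524.5 CPM after 24 h. The 8 h libraries lay below all others, and the 24 h libraries were among the untreated ones. After 8 h OAZ1 was lower by test (log2 fold change -0.15, SE 0.035, adjusted p = 0.00198), and after 24 h it was not called (-0.01, adjusted p = 0.834). From 8 h to 24 h it rose by 0.14 (adjusted p = 0.00273).

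OAZ2, the antizyme of lower level, stood at 87.9, 81.8 and 83.6 CPM without TEPA, at 68.8, 74.2 and 70.4 CPM after 8 h and at 82.0, 87.5 and 83.0 CPM after 24 h. Like OAZ1 it was below both other groups at 8 h in every library. Its log2 fold change was -0.25 after 8 h (SE 0.044, adjusted p = 0.000257), 0.24 from 8 h to 24 h (adjusted p = 0.00023) and -0.0038 at 24 h against untreated cells (adjusted p = 0.95).

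AZIN1, a relative of ODC1 without enzyme activity that binds antizyme, stood at 283.9, 292.1 and 289.7 CPM without TEPA, at 255.9, 242.5 and 239.2 CPM after 8 h and at 253.6, 246.6 and 259 CPM after 24 h. All 6 TEPA libraries were below the untreated ones. The log2 fold change was -0.23 at 8 h (SE 0.037, adjusted p = 8.64e-05) and -0.19 after 24 h (adjusted p = 0.00043), and between the times 0.04 was not called (adjusted p = 0.358).

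Rows of near copies and neighbours of the 10 genes held few counts. Such rows do not show how many reads were left uncounted because they also matched a copy. The divergent transcript ODC1-DT had 15 to 33 counts per library, AMD1P3 had 3 to 25, AMD1P2 at most 3, and the other listed pseudogenes of ODC1, AMD1, SRM, SMS and OAZ1 had 0. In GENCODE v44 on hg38, no exon base of the 10 overlapped a same-strand gene whose name is also in the count table. The authors counted with strand, but over an Ensembl annotation. Genes named otherwise there were not checked, so shared reads in the deposited counts are not excluded. By whole gene, the synthesis genes are ODC1 at chr2:10439968-10448327 (minus), AMD1 at chr6:110874770-110898879 (plus), SRM at chr1:11054584-11060020 (minus) and SMS at chrX:21940709-21994837 (plus). The breakdown genes are SAT1 at chrX:23783173-23786210, SMOX at chr20:4120980-4187747 and PAOX at chr10:133379261-133391694 (all plus), and the antizymes OAZ1 at chr19:2269509-2273490 (plus) and OAZ2 at chr15:64687573-64703281 (minus).

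Around these genes, 44 others of the pathway were listed and 38 were tested. After 8 h 13 were called higher and 11 lower (24 of 38, beside 49.6% of all genes), at 24 h 6 were higher and 13 lower (beside 52.5%), and at 24 h against 8 h 10 were higher and 19 lower (beside 54.8%). The shares of all genes to set beside the counts of each list below are 25.2% higher and 24.5% lower at 8 h, and 25.7% higher and 26.8% lower at 24 h. Their median log2 fold changes were -0.01, -0.05 and -0.12, where all genes had -0.0013, 0.0023 and -0.0155.

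Among the further enzymes and antizyme relatives (SAT2, OAZ3 and AZIN2 tested), OAZ3 was called at 24 h, and at 8 h edgeR called 0 of the 3, with 1 at an unadjusted p under 0.05 and 0 with DESeq2. OAZ3, an antizyme known from the testis, stood at 0.586, 0.853 and 0.558 CPM without TEPA, at 0.825, 0.758 and 0.789 CPM after 8 h and at 1.94, 2.52 and 2.42 CPM after 24 h. It stayed a low transcript, with all 24 h libraries above the rest and a log2 fold change of 1.76 (SE 0.203, adjusted p = 2.83e-06).

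Of 9 tested genes of ornithine and arginine supply, 3 were higher and 2 lower at 8 h, and 2 were higher and 4 lower at 24 h. ARG2, the mitochondrial arginase that releases ornithine, stood at 4.21, 3.35 and 3.37 CPM without TEPA, at 3.30, 4.44 and 2.96 CPM after 8 h and at 19.0, 19.2 and 18.8 CPM after 24 h. Its level was 5.23-fold that of untreated cells at 24 h (log2 fold change 2.39, SE 0.115, adjusted p = 2.33e-10), and at 8 h it overlapped them (-0.02, adjusted p = 0.902). SLC7A2, a carrier of arginine and other cationic amino acids, rose from 10.4 ± 1.57 to 17.3 ± 0.73 CPM at 8 h (0.73, adjusted p = 7.4e-06) and was at 10.8 ± 0.37 CPM at 24 h (0.05, adjusted p = 0.694). The urea cycle enzymes ASS1 and ASL had opposite signs at each time. ASS1 was -0.20 at 8 h (adjusted p = 0.026, lost without untreated replicate 1, at -0.10, and without TEPA 8 h replicate 1 or TEPA 8 h replicate 3) and 0.37 at 24 h (adjusted p = 0.000321), and ASL was 0.32 at 8 h (adjusted p = 0.000172) and, after 24 h, -0.37 (adjusted p = 5.4e-05). OAT, which converts ornithine toward proline and glutamate, was called lower at each time, by -0.37 (log2 fold change, adjusted p = 1.91e-06) and -0.14 (adjusted p = 0.00874).

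Of 6 tested genes that supply S-adenosylmethionine or salvage methylthioadenosine, the by-product of the aminopropyl steps, 4 were higher and 1 lower at 8 h, and 2 were higher and 2 lower at 24 h. MAT2A, which makes S-adenosylmethionine, stood at 290 ± 18.7 CPM without TEPA, at 345.1 ± 8.28 CPM after 8 h and at 252.9 ± 7.75 CPM after 24 h, with log2 fold changes of 0.25 (adjusted p = 0.00024) and -0.20 (adjusted p = 0.00152). MRI1, an isomerase of the salvage route, rose by 0.50 at 8 h (adjusted p = 1.13e-06) and, after 24 h, by 0.19 (adjusted p = 0.005). MTAP, the first enzyme of that route, had 0 counts in all 9 libraries.

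The hypusine pathway uses spermidine to modify the translation factor eIF5A. Of its 4 genes 3 were higher at 8 h. At 24 h edgeR called 0 of the 4, also 0 at an unadjusted p under 0.05 and 0 with DESeq2. DHPS, the deoxyhypusine synthase, stood at 2.16, 2.69 and 2.36 CPM without TEPA, at 5.75, 5.30 and 5.57 CPM after 8 h and at 2.73, 2.48 and 2.50 CPM after 24 h. The 8 h libraries were apart from all others, for a low transcript of 81 to 230 counts per library. DHPS rose by 1.20 log2 units after 8 h (SE 0.115, adjusted p = 5.88e-07), and after 24 h its 0.09 was not called (adjusted p = 0.552). EIF5A itself was at 1341 ± 65.3 CPM in untreated cells and changed by 0.18 at 8 h (adjusted p = 0.00162).

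Of 11 tested genes tied to polyamine transport, 3 were higher and 4 lower at 8 h, and 1 was higher and 4 lower at 24 h. ATP13A2, a lysosomal polyamine exporter, was lower at both times, from 151.4 ± 10.2 CPM in untreated cells to 107.6 ± 2.8 CPM at 8 h (-0.49, adjusted p = 2.25e-06) and 116.9 ± 8.21 CPM at 24 h (-0.37, adjusted p = 2.64e-05). GPC1, a heparan sulfate proteoglycan linked to polyamine uptake, fell from 173.2 ± 2.92 CPM to 145.1 ± 5.33 CPM at 8 h (-0.26, adjusted p = 0.000115) and 79.9 ± 3.98 CPM at 24 h (-1.12, adjusted p = 2.31e-11). SLC47A1, an organic cation extruder, fell from 7.61 ± 0.303 to 2.53 ± 0.186 CPM at 24 h (-1.58, adjusted p = 4.68e-09) and was -0.22 at 8 h (adjusted p = 0.06).

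SLC7A11, the cystine carrier, stood at 192 ± 25.7 CPM without TEPA, at 226.7 ± 15.7 CPM after 8 h and at 90.6 ± 11.8 CPM after 24 h. The 24 h log2 fold change was -1.09 (adjusted p = 9.37e-08), and the call on its 8 h value of 0.24 (adjusted p = 0.0352) was lost in 4 of 6 fits that left out a library (0.14 without untreated replicate 1), with DESeq2 and with a replicate block. Its partner chain SLC3A2 rose by 0.39 at 8 h (adjusted p = 6.97e-06) and was -0.05 at 24 h (adjusted p = 0.431). SLC22A3 and SLC12A8 were low transcripts that differed between the times, by -0.60 (adjusted p = 0.000193) and 0.71 (adjusted p = 7.21e-05) from 8 h to 24 h.

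Of 5 regulators with a known tie to ODC1 or SAT1, 4 were called lower at 8 h and 3 at 24 h, beside 24.5% and 26.8% of all genes, and the rest were not called. MYC, a known activator of ODC1, stood at 98.3, 107.9 and 107.3 CPM without TEPA, at 100.3, 94.4 and 97.6 CPM after 8 h and at 87.7, 95.3 and 85.4 CPM after 24 h. At 8 h MYC overlapped untreated cells and was not called (-0.10, adjusted p = 0.0975). It was -0.14 and called without untreated replicate 1, and -0.11 and called with no filter. At 24 h MYC was -0.22 (adjusted p = 0.00112). These are mRNA levels, and a link of MYC or of MXI1 to ODC1 was not tested. MXI1, a partner of MAX that opposes MYC, was -0.61 at 8 h (adjusted p = 0.00278) and, after 24 h, 0.12 (adjusted p = 0.486). Without untreated replicate 1 the MXI1 values were -0.41 at 8 h, still called, and 0.32 at 24 h, which was then called (adjusted p = 0.0244).

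**Figure D3:**
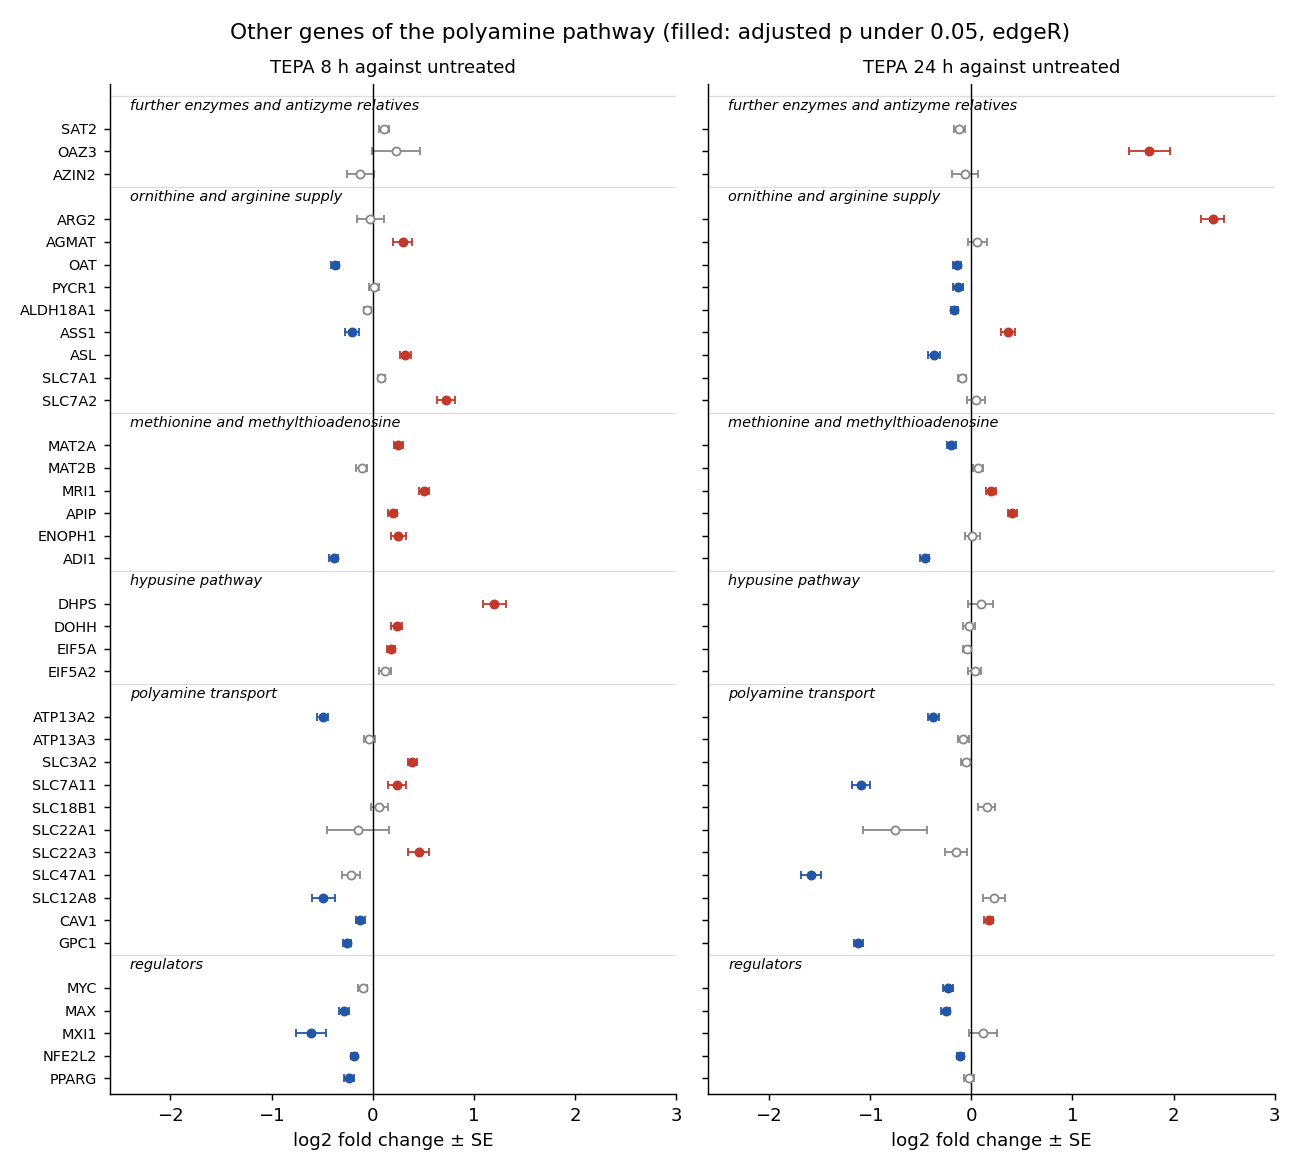
Log2 fold change with its standard error of the 38 tested genes of the 6 other pathway lists at 8 h and at 24 h against untreated cells; filled points were called (adjusted p under 0.05) and open points were not. DHPS (1.20) and SLC7A2 (0.73) lead at 8 h, and ARG2 (2.39), OAZ3 (1.76), SLC47A1 (-1.58) and GPC1 (-1.12) at 24 h.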

How the data were processed

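RNA-Seq of MDA-MB-231 cells was used: untreated, TEPA 8 h and TEPA 24 h, 3 libraries each. Per the labels and the study's methods, the authors checked reads with FastQC, aligned them to hg38 with HISAT2 and counted read pairs per gene name over exons with featureCounts, using strand and an Ensembl annotation. Deposited values were unnormalized counts in 1 column per library. Tool versions are not given in the sources used here.

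Counts were analysed in R 4.3.3 with edgeR 4.0.16 (filterByExpr, minimum count 10, TMM factors, 1 quasi-likelihood model over all 9 libraries). Adjusted p-values (Benjamini-Hochberg) took in all 16556 tested genes. Standard errors were derived from each log2 fold change and its F statistic (the absolute change over the root of F). CPM used TMM-scaled library sizes. The biological coefficient of variation was 0.0481. The procedure was tested on simulated data. Alternatives were other factors and filters, DESeq2 1.42.0, a replicate block, fewer samples and a fold limit. Coordinates and exon lengths came from GENCODE v44 on hg38, and figures were drawn with matplotlib 3.10.9.

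All genes of the main set are named. Of the other pathway genes, those past an adjusted p of 0.05 and a log2 fold change of 0.5 in a comparison are always named, with a few more of each list. Members and lists were chosen with earlier results of these data known. The study's methods name no block, and the labels do not say that a replicate number marks a shared batch. The numbers were therefore not taken as pairs. Correlations of deviations between libraries of the same replicate number were -0.080 to 0.038, and between those of unlike number -0.054 to 0.073. With 3 libraries per group these values cannot exclude pairing. With sequencing of 34633755 to 49342659 counts per library, PAOX and OAZ3 were the shallowest of the genes named with a fold change.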

Additional observations from a re-analysis of the deposited data

Results flagged for a closer look

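The change against untreated cells differed between 8 h and 24 h, by edgeR's test of 24 h against 8 h itself, for these genes of the main set (log2 difference, 24 h minus 8 h): ODC1 at -1.06, SRM at -0.62, SMS at -0.51, SAT1 at 0.42, OAZ2 at 0.24, OAZ1 at 0.14 and SMOX at -0.19. Of the adjusted p-values, 6 lay at or under 0.00273, and that of SMOX was 0.0435 and was lost in 10 of 14 alternatives. All genes gave a call in 54.8% of cases.

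Among the other pathway genes, ARG2 (2.41), OAZ3 (1.53), MXI1 (0.73), SLC12A8 (0.71) and ASS1 (0.57) were higher at 24 h than at 8 h. SLC47A1 (-1.36), SLC7A11 (-1.33), DHPS (-1.11), GPC1 (-0.86), ASL (-0.69), SLC7A2 (-0.68), SLC22A3 (-0.60), MAT2A (-0.45), SLC3A2 (-0.44), MRI1 (-0.31), EIF5A (-0.22) and MYC (-0.12) were lower. The adjusted p was at most 0.000508 for these genes apart from MYC, whose difference had an adjusted p of 0.0435 and was lost in 12 of 14 alternatives.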

How the results depend on the processing

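The counts of called genes kept within 1.5 times of the reported ones under every alternative except the added fold limit. With a log2 fold change beyond 0.5 also required, 2 of the 10 genes were called at 8 h, 2 at 24 h and 3 between the times, and of the other pathway genes 4, 5 and 12. Leaving out each library in turn gave 7 to 8, 7 to 8 and 6 to 7 calls among the 10, and 20 to 25, 17 to 24 and 25 to 28 among the others. With a replicate block, 8 of the 10 were called at 8 h, ODC1 was at 0.65, and of the calls on the 10 genes SMOX between the times was lost (-0.19, adjusted p = 0.0679).

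Signs turned for these genes, and no fit with the turned sign called its gene. At 24 h OAZ1 gave 0.0164 with upper-quartile factors, 0.0006 with 10 counts in every library and -0.0261 to 0.0126 without a library, and OAZ2 gave 0.0035 with RLE factors and with DESeq2, 0.0226 with upper-quartile factors, 0.0067 with 10 counts in every library and -0.0330 to 0.0240 without a library. PAOX at 8 h ran from -0.21 to 0.76 and AMD1 between the times from -0.0323 to 0.0916 without a library. So did ARG2 at 8 h (-0.2155 to 0.0862) and, at 24 h, SLC7A2 (-0.0687 to 0.1334), SLC3A2 (-0.0959 to 0.0072) and MXI1 (-0.0628 to 0.3199), the last called without untreated replicate 1.

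Depth limits PAOX, at 25 to 70 counts, and the untreated libraries' spread limits ODC1 and SAT1. With 3 libraries against 3, an exact permutation test of a single gene cannot go below 0.1. Concentration, the handling of untreated cells and separate cultures are unsettled, and mRNA counts do not show antizyme translation, enzyme activity or polyamine levels.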
